A study of Homo sapiens with 24 samples.

Results

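HBL-1 and OCI-Ly3 are established human lymphoma lines of the activated B-cell-like subtype of diffuse large B-cell lymphoma (ABC-DLBCL). The series holds 24 arrays, and the 12 described here are those titled HBL-1 or OCI-Ly3, 6 of each line, chosen by their titles. Each array compared RNA of cells nucleofected with 1 of 2 siRNAs against FOXP1, siFOXP1_308 or siFOXP1_309, with RNA of the same line given a non-silencing duplex, siCtrl, and cells were harvested 48 hours later. Each siRNA had 3 biological replicates per line, and the remaining 12 arrays hold the germinal-centre-type lines DB and K422. The question was what the response to FOXP1 loss in the 2 ABC-DLBCL lines had in common, and where it differed or ran in opposite directions.

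FOXP1 is a forkhead transcription factor that acts mostly as a repressor and is needed early in B-cell development, and its level falls when normal B cells enter the germinal centre. ABC-DLBCL cells resemble B cells arrested on the way to becoming plasma cells, and many such tumours express FOXP1 strongly. Genes that rise when it is silenced include those it may repress directly and those that follow later.

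A value here is log2(siFOXP1/siCtrl) of an array, so that positive values are higher in silenced cells, and the 6 arrays of a line were averaged. A gene was called higher or lower in a line, or different between the lines, at a limma adjusted p under 0.05 with a value of at least 0.5 on the log2 scale. The dyes were not swapped (Cy3 for silenced RNA throughout), so that dye bias and silencing cannot be told apart inside a line. The same holds for what the lines share, since the dye orientation was the same in both. The difference HBL-1 minus OCI-Ly3 compares arrays of 1 dye orientation, and the lines share no control RNA. HBL-1 was scanned in another session than OCI-Ly3, with another version of the scanner software, so line and session cannot be told apart. Between 60.4% and 64.5% of the probes of an array stood well above background in 1 channel or both. The precision is limited by the 3 replicates per siRNA and line. The main fit treats the 6 arrays of a line as independent, and an SD over them includes the difference between the siRNAs. Fits that use the replicate number are given at the end. Of 30142 genes on the array, 16673 were measured in both lines and tested, 1610 were measured in HBL-1 and not in OCI-Ly3, and 1037 in OCI-Ly3 and not in HBL-1.

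The labelled cell type was checked against its markers. All 9 B-cell markers, among them CD79A, MS4A1 and PAX5, were measured in both lines. Of 12 genes of an ABC-DLBCL list, which also holds germinal-centre genes, HBL-1 had 10 measured and OCI-Ly3 11. IRF4, BATF and CCND2 were well above background on all 6 arrays of both lines, but so were the germinal-centre genes BCL6, LMO2 and MYBL1. SERPINA9 was so on 6 arrays of OCI-Ly3 and 1 of HBL-1, and MME on none. The subtype label was thus not settled by these markers. Of 8 T-cell markers on the array HBL-1 had 4 measured and OCI-Ly3 2. CD3E and CD8A were well above background on all 6 arrays of both lines and CD7 on 6 of HBL-1, while CD3D and CD28 were so on no array of either line. Of 9 myeloid markers HBL-1 had 4 measured and OCI-Ly3 2. CD14 and CSF1R were well above background on all 6 arrays of both lines and CD33 and FCN1 on 6 of HBL-1, while LYZ, MPO, CD163 and S100A9 were so on no array of either line.

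FOXP1 itself was read by a 60-base probe on chromosome 3 of hg18, at chr3:71091098-71091157 on the minus strand, and the 9 named genes that moved in opposite directions by a probe each. The opening 30 bases of these probes are shown because the calls of opposition rest on them, and each is followed in the same order by its hg18 position in the array files.
FOXP1: caaccacagtccagattttgaccatgacag
DAAM1: atttaaaagttggacatcaattttttcccc
KIF26B: taggattgctgtggaaagcgaacacaaaac
KLF2: gagacaggtgggcatttttgggctacctgg
GBP1: ggtactgagcagagtcttaggtaaaagtct
CEACAM1: ccatgctgtgctgtgttatttaatttttcc
HIPK2: gagaagagaacatttttaaaaggaagggat
ASS1: tccctggaggatgcctgaattctacaaccg
CALHM2: ttttaaaaaactgttatcttcttggccagg
ANXA4: aattaaaacgcctacagctgcctcctagaa
The DAAM1 probe lies at chr14:58905983-58906042 and the KIF26B probe at chr1:243932886-243932944, both on the plus strand. The KLF2 probe lies at chr19:16299246-16299305 on the plus strand, and the GBP1 probe at chr1:89291279-89291338 on the minus strand. The CEACAM1 probe lies at chr19:47703344-47703403 and the HIPK2 probe at chr7:138907924-138907983, both on the minus strand. The ASS1 probe lies at chr9:132331941-132332000 on the plus strand, the CALHM2 probe at chr10:105196751-105196810 on the minus strand, and the ANXA4 probe at chr2:69906253-69906312 on the plus strand. The files do not say whether a probe lies in a coding or a non-coding part of its transcript.

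FOXP1 was silenced to a like extent in the 2 lines. On the 6 HBL-1 arrays its log2 ratio ran from -2.51 over a median of -1.75 to -1.09, and on the 6 OCI-Ly3 arrays from -2.51 over -1.95 to -1.39. The ranges overlapped almost entirely, and in both lines the 3 arrays of siFOXP1_309 were lower than the 3 of siFOXP1_308. The means were -1.74 ± 0.55 (SD, n = 6) for HBL-1 and -1.96 ± 0.54 (SD, n = 6) for OCI-Ly3. The difference of 0.22 had a 95% interval from -0.01 to 0.46 and was not called (limma adjusted p = 0.134). The other FOXP1 probe gave -1.79 and -2.04.

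More genes passed the test in HBL-1 than in OCI-Ly3. In HBL-1 1273 genes were called higher, 7.64% of those tested, and 855 lower, 5.13%. In OCI-Ly3 486 genes were called higher, 2.91%, and 237 lower, 1.42%. The SD of the line means over all genes tested was 0.371 for HBL-1 and 0.256 for OCI-Ly3. The balance of directions depended on the scaling: with normexp background correction the counts were 661 higher and 279 lower in HBL-1 after loess, and after median centring 140 and 1899 in HBL-1 and 125 and 166 in OCI-Ly3.

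Over the genes tested, which are no independent replicates, the means of the lines had a Pearson correlation of 0.556 and a Spearman correlation of 0.553. Both lines called 221 genes higher, 1.33% of those tested, and 122 lower, 0.732%, while 14 genes, 0.084%, were called in opposite directions. Dye bias and silencing cannot be told apart in the correlation or the shared calls. The genes higher in both lines were 17.4% of those higher in HBL-1 and 45.5% of those higher in OCI-Ly3. The genes lower in both were 14.3% of those lower in HBL-1 and 51.5% of those lower in OCI-Ly3. With normexp and median centring the shared counts were 27 higher and 127 lower.

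The difference itself was called for 1243 genes, 7.46% of those tested. Of these 633 lay above 0, 3.8%, that is further up or less far down in HBL-1, and 610 lay below 0, 3.66%. With normexp the split was 324 above and 191 below after loess, and 45 above and 142 below after median centring. With siFOXP1_308 alone it was 397 above and 414 below, and with siFOXP1_309 alone 685 above and 823 below. Of the 1243 genes 730 were called in HBL-1 alone, 123 in OCI-Ly3 alone, 51 in both in the same direction, 14 in opposite directions, and 325 in neither line taken by itself. The line means had opposite signs for 672. The 6 HBL-1 arrays did not overlap the 6 OCI-Ly3 arrays for 770 of the 1243, beside 2652 of all genes tested, 15.9%.

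**Figure D1:**
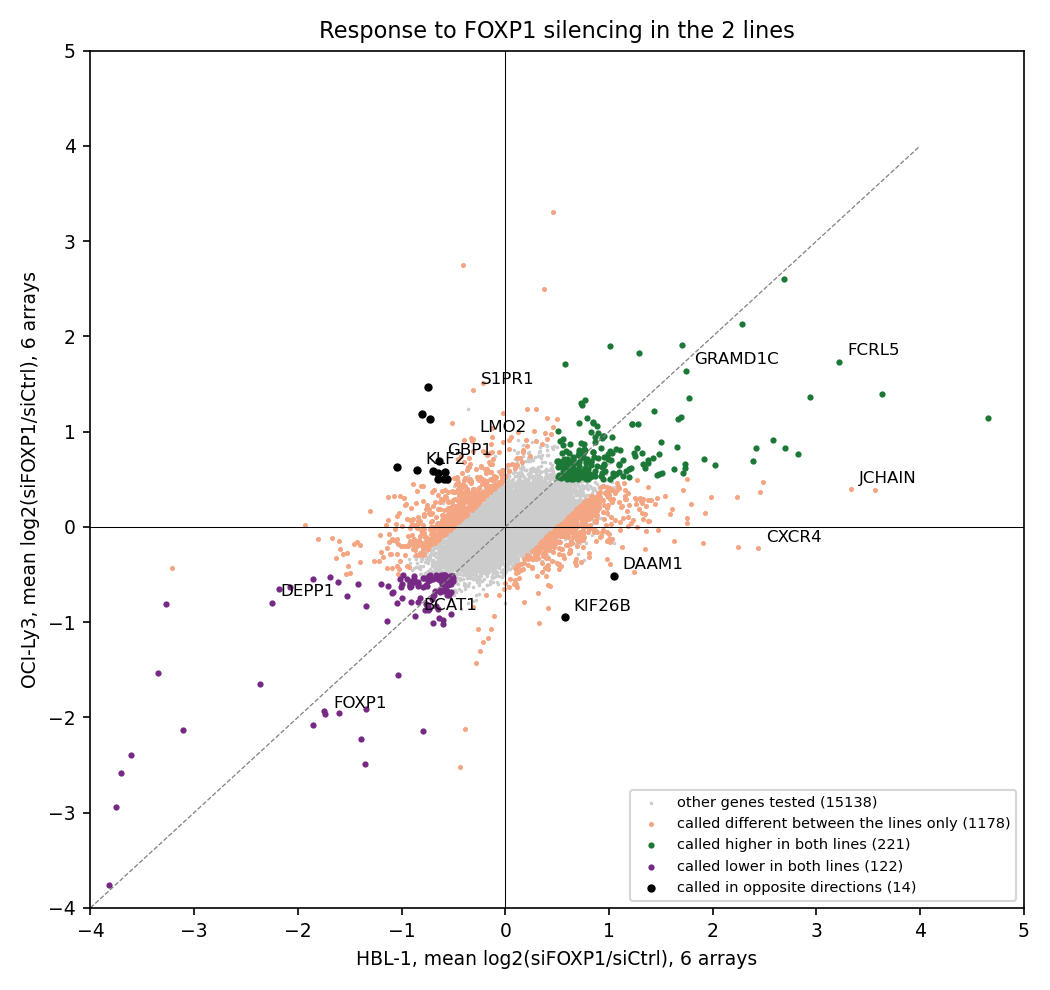
Mean log2(siFOXP1/siCtrl) over 6 arrays in HBL-1 (x axis) against OCI-Ly3 (y axis) for each of 16673 genes, with the dashed line at equal response and colours for the 5 classes of call. Of the 221 genes higher in both lines 154 lie on the HBL-1 side of the dashed line, the 14 opposed genes lie in the upper left and lower right, and the most extreme points include genes with a channel near background.

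The siRNAs gave the difference in the same direction for 12500 of the 16673 genes tested, and for 1237 of the 1243, whose choice by the mean of both favours a shared sign. The labels do not say whether the arrays of both siRNAs in a replicate share control RNA. An interaction of siRNA and line was called by limma for 0 genes, with 1590 at an unadjusted p under 0.05. With the replicate number as a random block, 88 genes were called for it.

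K422 shared the scan session of HBL-1, and DB that of OCI-Ly3. For 857 of the 1243 genes, 68.9%, K422 minus DB had the sign of HBL-1 minus OCI-Ly3. It reached 0.5 in the same direction for 140 genes, 11.3%, and in the opposite direction for 62, 4.99%. These shares were not counted over all genes tested, so it cannot be said whether they are particular to the called genes. Over all genes tested the Pearson correlation of these differences, whose lines share session and software version, was 0.256. The part of the session in the differences was not tested.

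Of the 221 genes called higher in both lines, 154 had the larger value in HBL-1. Among the 10 named, 7 were not called different between the lines. GRAMD1C, which moves sterols between membranes, ran from 1.31 over a median of 1.76 to 2.35 on the HBL-1 arrays and from 1.16 over 1.63 to 2.04 on the OCI-Ly3 arrays. All 12 arrays were above 1, and the ranges overlapped. The means were 1.75 ± 0.36 (SD, n = 6) and 1.64 ± 0.33 (SD, n = 6), and the difference of 0.11 had a 95% interval from -0.16 to 0.37.

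PTAFR, the receptor for platelet-activating factor, ran from 0.67 to 2.31 in HBL-1 and from 1.00 to 1.46 in OCI-Ly3. TP53INP1, a p53-inducible stress protein, ran from 1.07 to 2.26 in HBL-1 and from 0.89 to 1.51 in OCI-Ly3. The TP53INP1 difference of 0.54 was not called (limma adjusted p = 0.0513). LYPLA2, a thioesterase that removes fatty acids from proteins and lysophospholipids, had means of 0.96 ± 0.08 (SD, n = 6) in HBL-1 and 0.95 ± 0.22 (SD, n = 6) in OCI-Ly3. GBP2, an interferon-inducible guanylate-binding protein, had means of 0.94 and 0.93, with a 95% interval of the difference from -0.18 to 0.19. CLSTN3, a calsyntenin of the cell membrane, had means of 1.03 and 0.94. ABCA6, a lipid transporter, had means of 1.23 and 1.08.

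3 of the 10 named shared rises also differed in size. FCRL5, an Fc receptor-like protein of B and plasma cells that binds IgG, ran from 2.89 over a median of 3.15 to 3.61 in HBL-1 and from 1.29 over 1.79 to 2.10 in OCI-Ly3. All 12 arrays were above 1, every HBL-1 array lay above every OCI-Ly3 array, and the difference was 1.48 ± 0.11 (SE, limma adjusted p = 1.56e-05). C16orf74 had means of 2.94 for HBL-1 and 1.36 for OCI-Ly3, with a difference of 1.58. C1orf38, now THEMIS2, a signalling protein of B cells, went further up in OCI-Ly3, with 1.65 to 2.05 on its arrays against 0.85 to 1.15 on those of HBL-1. Its difference was -0.88 ± 0.09 (SE, limma adjusted p = 0.000119). In all, 36 of the 221 shared rises and 15 of the 122 shared falls were also called different.

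The shared falls named by the rule included enzymes of serine, one-carbon and amino acid metabolism. BCAT1, the cytosolic branched-chain aminotransferase, ran from -1.09 over a median of -0.80 to -0.75 in HBL-1 and from -1.15 over -0.90 to -0.79 in OCI-Ly3. The ranges overlapped, and the difference of 0.06 had a 95% interval from -0.11 to 0.23. MTHFD2, a mitochondrial folate enzyme, had means of -0.84 ± 0.16 (SD, n = 6) and -0.78 ± 0.30 (SD, n = 6).

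ASNS, which makes asparagine, had means of -0.71 ± 0.12 (SD, n = 6) in HBL-1 and -0.76 ± 0.42 (SD, n = 6) in OCI-Ly3. PSAT1, of serine synthesis, had means of -0.69 ± 0.08 (SD, n = 6) and -1.01 ± 0.51 (SD, n = 6). DDIT3, the stress transcription factor CHOP, had means of -0.69 ± 0.20 (SD, n = 6) and -0.72 ± 0.65 (SD, n = 6). In OCI-Ly3 these 3 genes spread over the replicates by more than 3 times as much as in HBL-1, and the replicate 1 arrays of both siRNAs were their lowest. DDIT3 lost its shared call with the methods' t-test, all 24 arrays in the fit, either normexp setting and siFOXP1_309 alone, and without replicate 1 of either line, the smaller of the line means then being -0.64 without that of HBL-1 and -0.32 without that of OCI-Ly3.

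Besides FOXP1 and C10orf10, the remaining named shared falls were C1orf96, now CCSAP, a centriole protein, C1orf54, and RAB38, a small GTPase of lysosome-related organelles. Their means were -0.90, -0.82 and -0.998 in HBL-1 and -0.79, -0.75 and -0.74 in OCI-Ly3. The other C1orf96 probes gave -0.56 and -0.24 in HBL-1 but -0.01 and 0.10 in OCI-Ly3, so its fall in OCI-Ly3 was seen with its brightest probe alone. RAB38 lost its shared call with either normexp setting, and C1orf96 with normexp and median centring. In the other lines the median over the shared rises was 0.40 in K422 and 0.29 in DB, and over the shared falls -0.43 and -0.39.

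**Figure D2:**
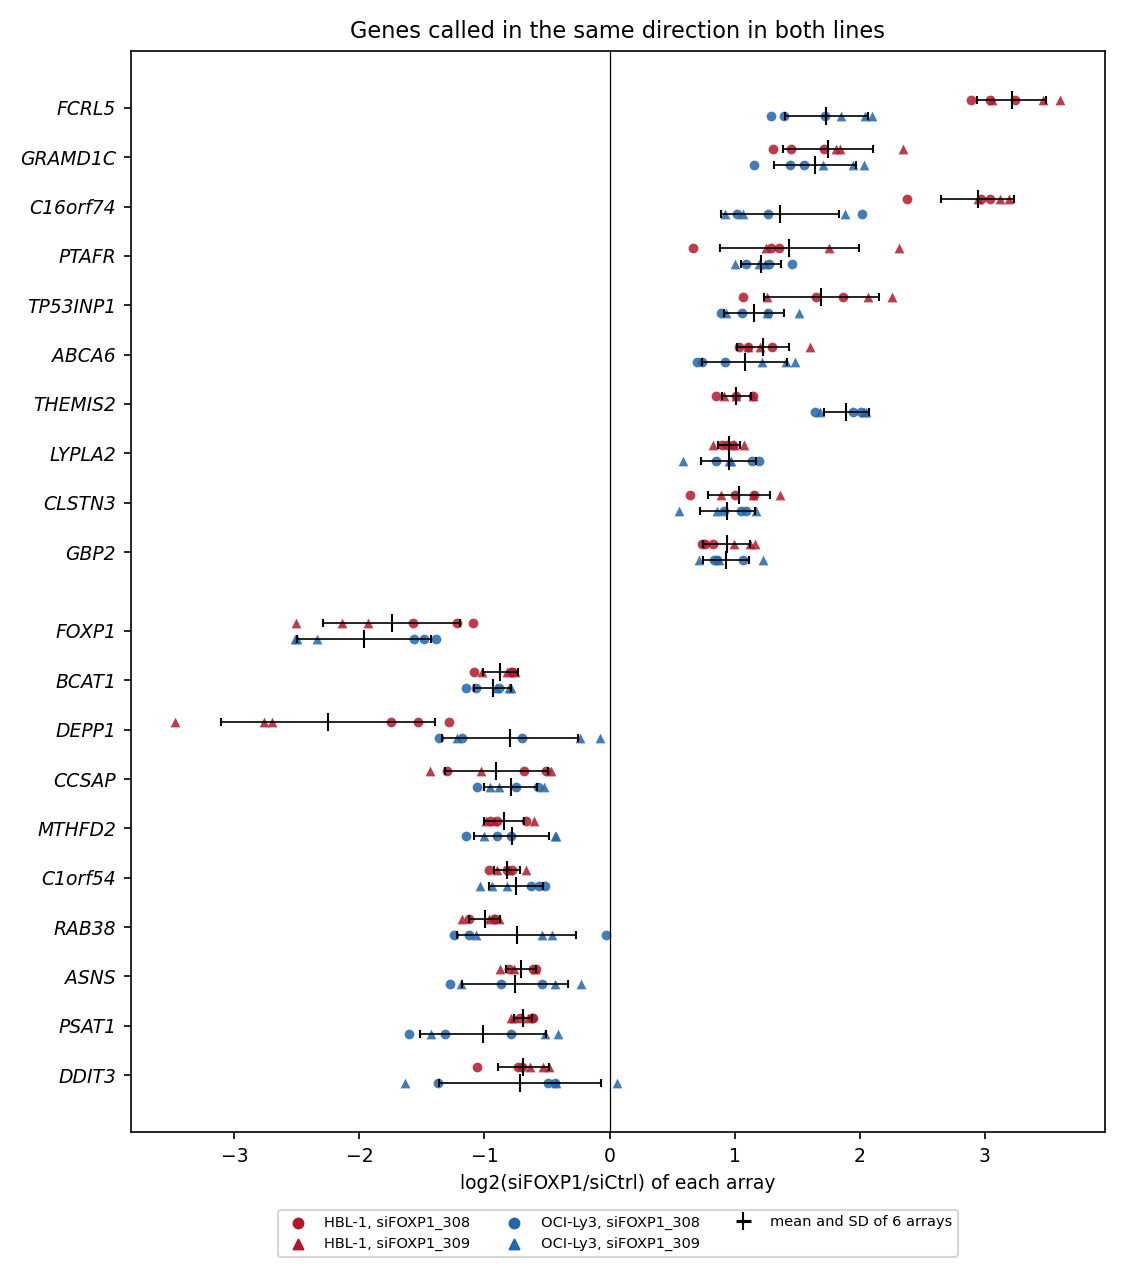
Log2(siFOXP1/siCtrl) of each array (x axis) for the 10 named genes called higher in both lines and the 10 called lower in both, with circles for siFOXP1_308, triangles for siFOXP1_309, red for HBL-1 and blue for OCI-Ly3, and black bars for the mean and SD of 6 arrays. FCRL5, C16orf74 and THEMIS2 separate the lines, while GRAMD1C, LYPLA2, GBP2, BCAT1 and MTHFD2 overlap.

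9 named genes were called in opposite directions with both channels measured. DAAM1, a formin that assembles actin filaments, ran from 0.68 over a median of 1.02 to 1.44 in HBL-1 and from -0.80 over -0.50 to -0.23 in OCI-Ly3. All 6 HBL-1 arrays were above 0 and all 6 OCI-Ly3 arrays below it, and the difference was 1.56 ± 0.08 (SE, limma adjusted p = 8.61e-07). Its other probe gave 0.89 and -0.48. K422 stood at 0.86 and DB at 0.10.

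KIF26B, a kinesin-family protein, likewise moved up in HBL-1, from 0.48 over a median of 0.55 to 0.73, and down in OCI-Ly3, from -1.35 over -1.04 to -0.38. No array crossed 0, and the difference was 1.52 ± 0.07 (SE, limma adjusted p = 8.61e-07). It was -0.46 in K422 and -0.57 in DB.

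The other 7 fell in HBL-1 and rose in OCI-Ly3. KLF2, a transcription factor of quiescent and recirculating lymphocytes, ran from -1.31 over a median of -0.84 to -0.49 in HBL-1 and from -0.16 over 0.78 to 0.97 in OCI-Ly3. All HBL-1 arrays were below 0, and 5 of 6 OCI-Ly3 arrays were above it, the exception being replicate 1 of siFOXP1_309. The difference was -1.45 ± 0.13 (SE, limma adjusted p = 5.4e-05), and it was -1.43 with siFOXP1_308 and -1.47 with siFOXP1_309. The dimmer KLF2 probe gave -0.27 and 0.07. K422 stood at -0.80 and DB at -0.06.

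S1PR1, the sphingosine-1-phosphate receptor by which lymphocytes leave lymphoid tissue and a known target of KLF2, showed the same order without passing the limit in HBL-1. It ran from -0.46 over -0.32 to -0.13 in HBL-1 and from 0.63 over 1.54 to 1.88 in OCI-Ly3. All 6 HBL-1 arrays were below 0 and all 6 OCI-Ly3 arrays above it, and its difference was -1.75 ± 0.12 (SE, limma adjusted p = 6.93e-06).

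GBP1, an interferon-inducible guanylate-binding protein, ran from -1.23 over a median of -0.53 to -0.27 in HBL-1 and from 0.15 over 0.71 to 1.13 in OCI-Ly3. The groups did not overlap, the difference was -1.33 ± 0.11 (SE, limma adjusted p = 3.52e-05), and the other GBP1 probe gave -0.85 and 0.55. GBP2 of the same family, described above, was higher in both lines by nearly the same amount.

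CEACAM1, a cell adhesion receptor, had means of -0.70 ± 0.31 (SD, n = 6) in HBL-1 and 0.59 ± 0.14 (SD, n = 6) in OCI-Ly3. A dimmer CEACAM1 probe was above 0 in both lines, with 0.30 and 0.64, so its opposition rests on the brightest probe. HIPK2, a nuclear kinase with 4 probes on the array, had means of -0.65 and 0.57, and 2 of its other probes had the same signs. ASS1, the argininosuccinate synthase of arginine synthesis, had means of -0.58 and 0.58, and replicate 2 of siFOXP1_308 stood apart in OCI-Ly3 at 1.15. CALHM2, a channel of the cell membrane, had means of -0.59 and 0.50, and ANXA4, a calcium-dependent membrane-binding annexin, -0.57 and 0.50.

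After normexp with loess, which gave smaller ratios, all 9 kept opposite signs and all 9 kept the call of the difference, but 1 gene, KLF2, was still called in each line. After normexp with median centring all 9 kept opposite signs and CEACAM1 lost the call of the difference, and again 1 gene, KLF2, was still called in each line. Of all 14 opposed genes 8 kept the call in each line with siFOXP1_308 alone, and 8 with siFOXP1_309 alone. The 5 opposed genes outside the naming rule were 2 probes without a gene name and KLF3, MBOAT1 and GAL3ST1, named here after their values were seen. KLF3 had both channels well above background on 2 OCI-Ly3 arrays, MBOAT1 on 1 HBL-1 array and GAL3ST1 on 3 HBL-1 arrays, so the size of their opposition is uncertain.

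**Figure D3:**
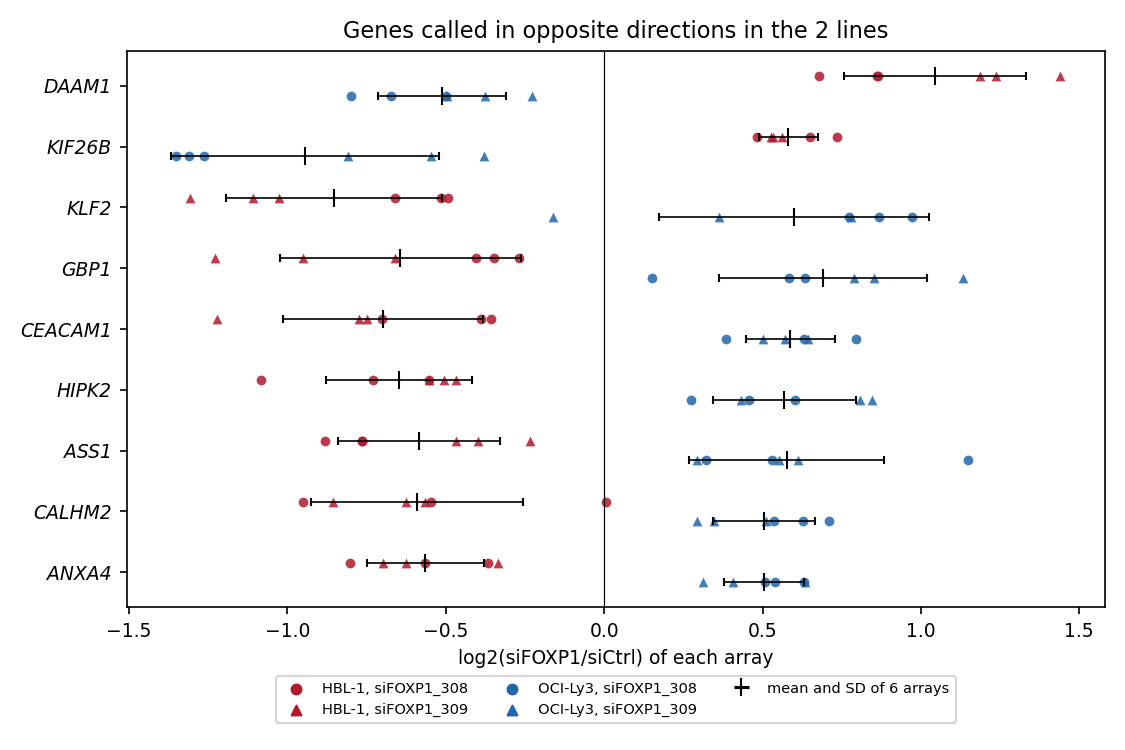
Log2(siFOXP1/siCtrl) of each array (x axis) for the 9 named genes called in opposite directions, with circles for siFOXP1_308, triangles for siFOXP1_309, red for HBL-1 and blue for OCI-Ly3, and black bars for the mean and SD of 6 arrays. DAAM1 and KIF26B lie right of 0 in HBL-1 and left of it in OCI-Ly3, the other 7 the other way round, and the arrays past 0 are 1 KLF2 array of OCI-Ly3 at -0.16 and 1 CALHM2 array of HBL-1 at 0.01.

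The largest difference above 0 with both channels measured was that of JCHAIN. This gene, named IGJ on the array, the chain that joins IgM and IgA units, ran from 2.70 over a median of 3.36 to 3.97 in HBL-1 and from -0.19 over 0.37 to 0.97 in OCI-Ly3. Every HBL-1 array lay above every OCI-Ly3 array by more than 1 on the log2 scale. The difference was 2.94 ± 0.11 (SE, limma adjusted p = 2.92e-07), and OCI-Ly3 by itself was not called, at 0.40.

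CXCR4, the receptor for the chemokine CXCL12 that holds B cells in the dark zone of the germinal centre, ran from 1.41 over 2.43 to 3.41 in HBL-1 and from -0.64 over -0.11 to 0.13 in OCI-Ly3. The groups were far apart, and the difference was 2.66 ± 0.17 (SE, limma adjusted p = 5e-06). In HBL-1 it was 1.68 with siFOXP1_308 and 3.19 with siFOXP1_309, the siRNA that lowered FOXP1 further.

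CD24, a heavily glycosylated surface protein of B cells, was called higher in both lines, with means of 2.39 and 0.70.

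A further 6 of the largest were called higher in HBL-1 and not in OCI-Ly3. PODXL, a sialomucin of the cell surface, had means of 1.91 and -0.17, SSTR2, a somatostatin receptor, 1.62 and -0.15, and SUSD3, a sushi-domain membrane protein, 1.93 and 0.14. JSRP1 had means of 2.49 and 0.47, COL18A1, a collagen, 1.98 and 0.31, and NLRP7, an intracellular NLR protein, 1.24 and -0.48. In these 6 genes every HBL-1 array lay above every OCI-Ly3 array. With normexp and median centring the differences of JSRP1, COL18A1 and CD24 were not called.

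Among the largest differences below 0, besides S1PR1, KLF2, GBP1 and CEACAM1, HLF, a bZIP transcription factor of blood stem cells, ran from -2.38 over -1.60 to -0.90 in HBL-1 and from -0.24 over -0.17 to -0.02 in OCI-Ly3. The fall was thus seen in HBL-1, and the difference was -1.46 ± 0.11 (SE, limma adjusted p = 2.02e-05). C10orf10, now DEPP1, a gene induced by FOXO factors, fell in both lines, with -2.25 ± 0.86 (SD, n = 6) in HBL-1 and -0.80 ± 0.55 (SD, n = 6) in OCI-Ly3. Its ranges overlapped, and its difference was -0.44 with siFOXP1_308, without a call, and -2.47 with siFOXP1_309. The call of its difference was lost with either normexp setting, and that of HLF with normexp and median centring. The shared call of C10orf10 was lost with either normexp setting and with siFOXP1_309 alone.

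RASSF4, a Ras-association protein, had means of -1.59 in HBL-1 and -0.23 in OCI-Ly3. PLAC8 had means of -0.89 and 0.45, and ESPNL -0.97 and 0.31. Both lost the call of the difference with normexp and median centring. LMO2, a transcriptional adaptor of germinal-centre cells, ran from -0.85 over -0.36 to 0.20 in HBL-1 and from 0.53 over 0.93 to 1.28 in OCI-Ly3. Its groups did not overlap, and its difference was -1.26 ± 0.13 (SE, limma adjusted p = 0.000118), a call that was lost with all 24 arrays in the fit.

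**Figure D4:**
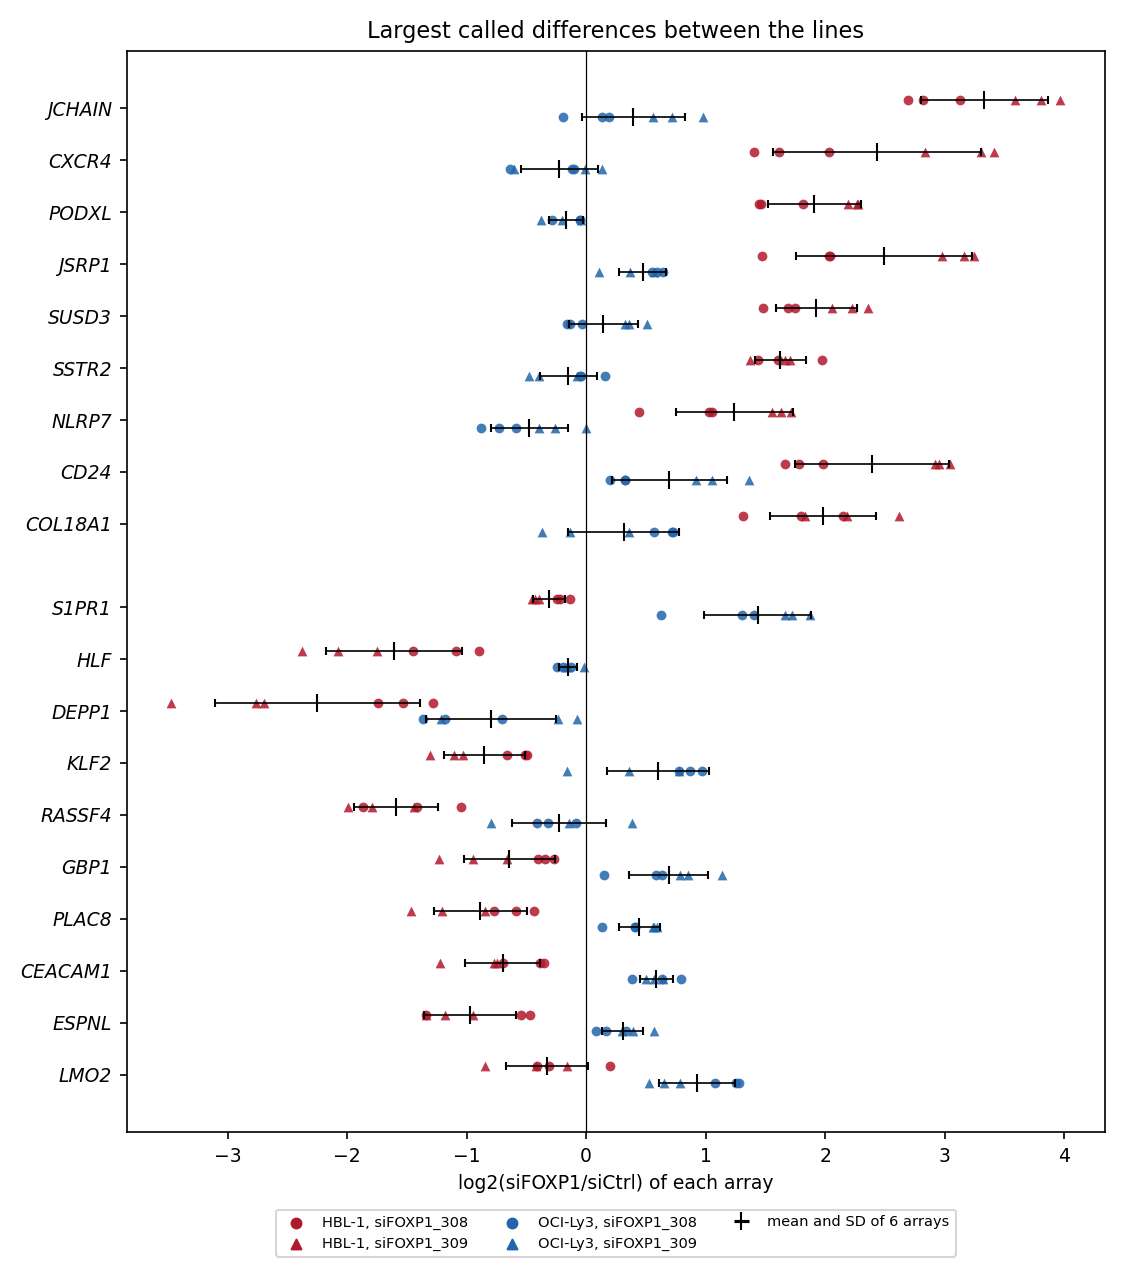
Log2(siFOXP1/siCtrl) of each array (x axis) for the named genes with the largest called differences above and below 0, with circles for siFOXP1_308, triangles for siFOXP1_309, red for HBL-1 and blue for OCI-Ly3, and black bars for the mean and SD of 6 arrays. The lines separate without overlap in every gene plotted except DEPP1.

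4 genes had larger fitted differences but a channel that was not well above background on any array of a line. Only a bound can be given there, from channel levels after loess and quantile normalisation between arrays. SYT17, a synaptotagmin-like protein, was at least 2.49-fold higher in silenced HBL-1 cells, and had a mean of 1.15 in OCI-Ly3. P2RY14, a receptor for UDP-sugars, was at least 1.58-fold higher in silenced OCI-Ly3 cells, and ZYG11A at least 1.25-fold higher. In HBL-1 their means were 0.46 and -0.41. TRIM49, of a family of near-identical copies, was at least 1.28-fold lower in silenced HBL-1 cells, and had a mean of -0.44 in OCI-Ly3. For SYT17, P2RY14 and TRIM49 the bound lies near the change of the other line in the same direction. It thus shows no clear difference between the lines. With normexp and loess the differences of SYT17 and TRIM49 were not called.

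The gene lists were compared with the 7.46% of all genes that differed, and with the median difference over all genes of 0.01. In the plasma cell list all 25 members were tested and 7 differed, 6 above 0 and 1 below, with a median difference of 0.15. Besides JCHAIN they were PRDM1, the Blimp-1 repressor that drives plasma cell differentiation, CD38 and CD27, surface proteins of plasma and memory cells, MZB1 (MGC29506 on the array), a chaperone of IgM assembly, FKBP11, a folding enzyme of the secretory pathway, and ITM2C.

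PRDM1 ran from 0.46 over a median of 0.76 to 0.97 in HBL-1 and from -0.60 over -0.35 to -0.18 in OCI-Ly3. All 6 HBL-1 arrays were above 0 and all 6 OCI-Ly3 arrays below it, and it was called in HBL-1 alone. CD38 had means of 0.96 and 0.35, CD27, with both channels measured on 2 OCI-Ly3 arrays, of 1.33 and 0.08, and MZB1 of 0.70 and -0.15. FKBP11 differed through OCI-Ly3, where it fell to -0.65 beside -0.02 in HBL-1. ITM2C went the other way, with -0.71 for HBL-1 and -0.03 for OCI-Ly3, and was not called with replicate means, 3 against 3. The members IRF4 and XBP1 did not differ by the call. With normexp and median centring 2 members differed above 0 and the median difference was -0.02.

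In the germinal centre and B cell fate list 3 of 20 members tested differed. Among them were IRF8, a B-cell transcription factor, above 0, and LMO2 below. IRF8 ran from 0.97 to 1.48 in HBL-1 and from 0.05 to 0.16 in OCI-Ly3, without overlap. HBL-1 called 7 members of this list higher and OCI-Ly3 2, and neither line called any lower. With normexp and median centring HBL-1 called 2 higher and 2 lower, and with siFOXP1_309 alone 2 lower.

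In the Fc receptor-like list 5 of 10 members tested differed, 3 above 0 and 2 below. FCRL2 and FCMR (FAIM3 on the array), an Fc receptor for IgM, joined FCRL5 above 0, with means of 1.54 and 1.29 in HBL-1 and 0.33 and 0.19 in OCI-Ly3. FCER2, the low-affinity IgE receptor CD23, and FCGBP, an IgG-binding mucin-like protein, lay below 0, with means of -0.03 and 0.37 in HBL-1 and 0.51 and 2.49 in OCI-Ly3. FCRL3 was called higher in both lines, at 2.69 in HBL-1 and, with its control channel not well above background on any array, by at least 1.26-fold in OCI-Ly3.

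In the list of G protein-coupled receptors and regulators of B cell migration 7 of 19 members tested differed, 3 above 0 and 4 below. Above 0 were GPR183, the oxysterol receptor EBI2 that guides B cells to the edge of the follicle, and RGS13 and RGS2, which shorten G protein signals. GPR183 ran from 0.42 over 0.67 to 0.74 in HBL-1 and from -0.55 over -0.22 to 0.04 in OCI-Ly3. RGS13 had means of 1.32 and 0.15, and RGS2 of 0.31 and -0.51. Below 0, besides S1PR1 and P2RY14, were GPR18, at -0.33 and 0.25, and PTGER4, a prostaglandin E2 receptor, at -0.82 and -0.28. GPR18, PTGER4 and RGS2 lost the call of the difference with siFOXP1_308 alone. RGS1 and GNAI2 were called higher in both lines.

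In the FOXO and KLF list 6 of 18 members tested differed, 3 above 0 and 3 below. Below 0 were KLF2, KLF3 and S1PR1. Above 0 were FOXO4, a forkhead factor restrained by PI3K signalling, at 1.38 and 0.67, PIK3IP1, an inhibitor of PI3K, at 0.75 and 0.14, and CCNG2, a cyclin of resting cells, at 0.57 and 0.02. These 3 calls and that of KLF3 were lost with either normexp setting, and those of CCNG2 and PIK3IP1 also with replicate means, 3 against 3. The list therefore held members at both ends, and its median difference was 0.04.

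In the chemokine and interleukin list 8 of 24 members tested differed, 6 above 0 and 2 below. Above 0, with CXCR4, were the TNF-family cytokine LTB, at 1.66 beside 0.84 in OCI-Ly3, the BAFF receptor TNFRSF13C, at 1.19 and 0.35, IL13RA1, at 2.58, with both channels measured on 2 HBL-1 arrays, and 0.91, and the common gamma chain IL2RG, at 0.93 and 0.42. The chemokine CCL5 differed through OCI-Ly3, at -0.64 beside 0.04 in HBL-1. Below 0 were the death ligand TNFSF10, at -0.21 and 0.80, and IL2RB, at -0.71 and -0.04. CCL5, IL13RA1 and IL2RG lost the call of the difference with either normexp setting, and IL2RB with normexp and median centring. IL6 was called higher in both lines and CXCR3 lower in both.

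In the adhesion and costimulation list 4 of 24 members tested differed, all above 0. ICOSLG, the ligand that B cells show to follicular helper T cells, ran from 0.95 over 1.40 to 1.92 in HBL-1 and from -0.39 over -0.06 to 0.61 in OCI-Ly3. TNFSF4, the OX40 ligand, had means of 0.63 and -0.25, the SLAM-family receptor LY9, with both channels measured on 3 OCI-Ly3 arrays, of 1.46 and 0.55, and CD24 was described above. Of the B cell receptor list 4 of 29 differed: CD22, an inhibitory receptor, and the adaptor BANK1 above 0, and the PI3K subunit PIK3R1 and the adaptor LAT2 below. In the adhesion list 2 members differed with normexp and loess and 1 with median centring, and with siFOXP1_308 alone 3 lay above 0 and 2 below. CD22 had means of 0.89 and 0.25 and PIK3R1 of -0.14 and 0.66.

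MHC class II molecules present antigen to helper T cells. Of 21 members tested HBL-1 called 5 higher and OCI-Ly3 11, 4 of them in both. These 4 were the invariant chain CD74, the peptide-loading chain HLA-DMA, HLA-DQB1 and HLA-DQB2. Which line called more members higher depended on the siRNA. With siFOXP1_308 alone HBL-1 called 3 against 12 for OCI-Ly3, but with siFOXP1_309 alone 7 against 4. After normexp with median centring HBL-1 called 2 against 4 for OCI-Ly3. Of all genes tested HBL-1 called 7.64% higher, OCI-Ly3 2.91%. RFXAP, a subunit of the factor that activates these genes, was called lower in both, at -0.52 and -0.59. HLA-DOB, which restrains peptide loading, was the 1 member called different, with 0.83 over 1.15 to 1.68 in HBL-1 and 0.15 over 0.26 to 0.53 in OCI-Ly3. The call of HLA-DOB was lost with either normexp setting and with the mean over the probes of a gene.

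The class II transactivator CIITA had means of 0.13 for HBL-1 and 0.51 for OCI-Ly3, and its difference of -0.38 did not reach the limit (limma adjusted p = 0.00444). In all, 10 of the 21 members had an adjusted p under 0.05 for the difference, all but HLA-DOB below 0 and under the limit of 0.5 in size. The list's median was 0.26 for HBL-1 and 0.51 for OCI-Ly3, and with normexp and median centring it was -0.10 and 0.30, where the medians of all genes tested were -0.13 and -0.03. The siRNAs gave unlike values here. The interaction was called for 0 genes by limma in the main fit, which leaves out the replicate number, and for more genes with the replicate block. With siFOXP1_308 alone 11 members differed below 0 and the median difference was -0.51. With siFOXP1_309 alone 0 differed below 0 by limma and the median difference was 0.03. HLA-DRB and HLA-DQB genes are near-identical copies, so their separate values are uncertain.

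In the integrated stress response list all 26 members were tested, and HBL-1 called 4 lower and OCI-Ly3 11, 3 of them in both, ASNS, PSAT1 and DDIT3. Neither line called a member higher. The counts moved with the setting: with normexp and median centring HBL-1 had 12 lower and OCI-Ly3 10, while OCI-Ly3 had 6 lower without its replicate 1, 3 with siFOXP1_309 alone and 7 with the methods' t-test. The 4 that differed all lay above 0: CHAC1, which degrades glutathione, at -0.28 in HBL-1 and -1.43 in OCI-Ly3, SLC7A11, the cystine transporter, at -0.22 and -1.21, VLDLR, a lipoprotein receptor, at -0.16 and -1.17, and SLC3A2, a transporter subunit, at 0.21 and -0.30.

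In OCI-Ly3 the first 3 of these ran widely, from -2.34 to -0.25 for CHAC1, from -2.30 to -0.16 for SLC7A11 and from -2.46 to 0.20 for VLDLR. With the replicate block SLC7A11 (limma adjusted p = 0.0548) and VLDLR (limma adjusted p = 0.0509) were not called. Without OCI-Ly3 replicate 1 the difference fell to 0.59 for SLC7A11 and 0.54 for VLDLR, neither called, and the list then had 1 member above 0 and 2 below. With normexp and median centring 0 members differed by limma.

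In the interferon list 4 of 25 members tested differed, all below 0: GBP1, GBP4 at 0.40 in HBL-1 and 0.92 in OCI-Ly3, IFI27 at -0.43 and 0.09, and IFIT2 at 0.30 and 0.90. IFIT2 was not called with the replicate block (limma adjusted p = 0.0627). Only GBP1 kept its call without OCI-Ly3 replicate 3, where GBP4 stood at -0.46, IFI27 at -0.44 and IFIT2 at -0.42. The list had 1 member below 0 with siFOXP1_308 alone and 2 with either normexp setting. Both lines called GBP2, ISG20, OAS1 and OAS2 higher, OAS2 in HBL-1 by at least 1.13-fold with a control channel not well above background on any array.

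The remaining lists differed little or not at all by the call. In the apoptosis list 3 of 23 members tested differed, the BH3-only proteins BIK, at 1.00 and 0.34, and HRK, at 0.65 and 0.11, above 0, and BID, at -0.69 and -0.04, below. With normexp and median centring 0 members of this list differed by limma. HRK was also lost with siFOXP1_309 alone and with the mean over the probes of a gene. In the NF-kB list 1 of 27 differed, the apoptosis inhibitor BIRC3, at -0.40 and 0.12. In the sterol and fatty acid list 0 of 26 were called by limma. In the cell cycle list 0 of 34 were called by limma, and the cyclin CCND2 fell in both lines, at -0.99 in HBL-1 and -0.60 in OCI-Ly3. At an unadjusted p under 0.05 there were 17 members in the sterol list and 14 in the cell cycle list. At an adjusted p under 0.05 there were 12 and 11, all with differences under the limit of 0.5.

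**Figure D5:**
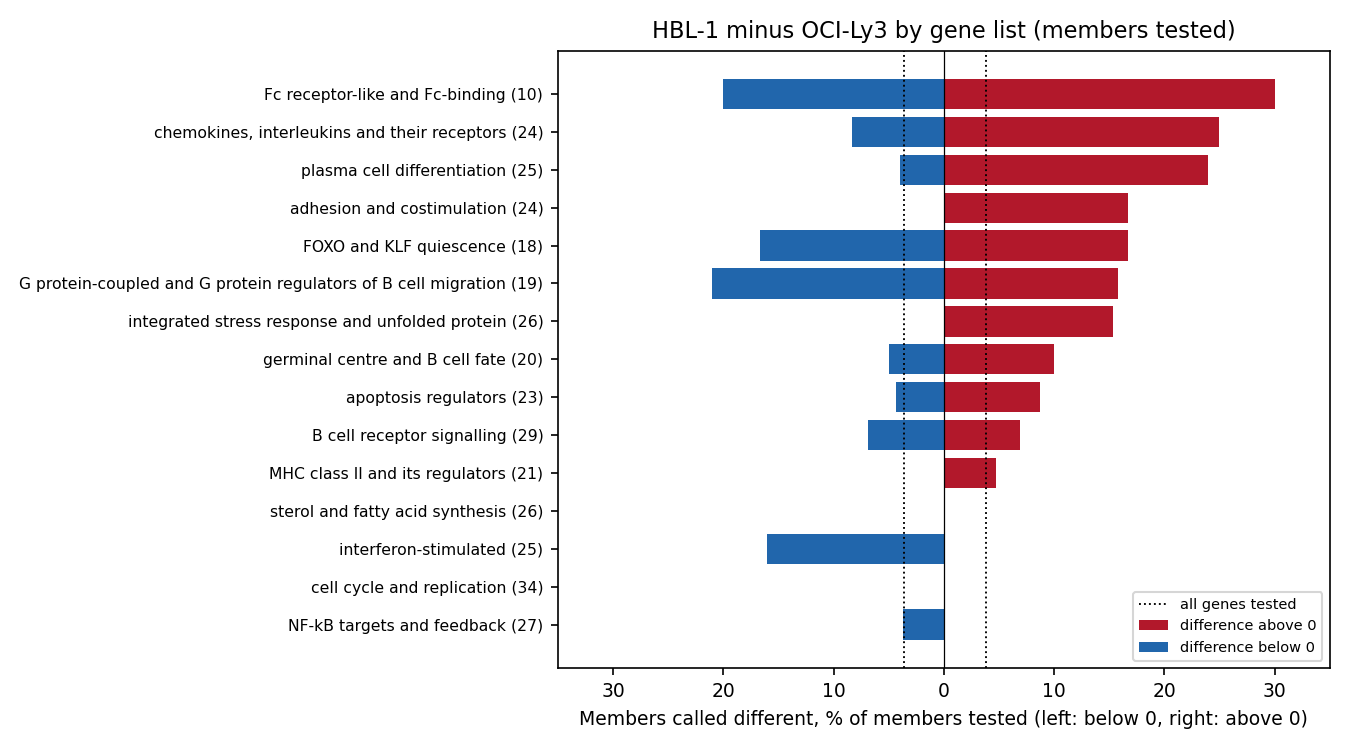
Share of each gene list's tested members called different between the lines (x axis, in % of members tested, right for HBL-1 minus OCI-Ly3 above 0 and left for below 0), with the number tested in brackets and dotted lines at the shares over all genes tested, 3.8% and 3.66%. The plasma cell and adhesion lists lie mostly or wholly to the right, the interferon list to the left, and the FOXO and KLF and the migration lists on both sides.

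Promoters from RefSeq on GRCh38.p14, running 250 bases before to 50 after the start, were searched for the forkhead core GTAAACA and, for the other strand, TGTTTAC. A promoter was found for 9589 of the 16673 genes tested, and 3.41% of these held a match, beside 3.42% of all 35116 promoters of the table. Of the genes higher in both lines with a promoter, 11 of 142 held it, of those lower in both 4 of 51, of those called different 30 of 667, and of the opposed 0 of 8. A match is a description of letters and not of binding.

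The matches that lie before the start in named genes are shown with the motif in capitals, because they are the places where a forkhead factor's letters occur in the genes described. ABCA6 and GRAMD1C were higher in both lines, FOXP1 and DEPP1 lower in both, and IL2RG, LTB and BANK1 different above 0.
FOXP1: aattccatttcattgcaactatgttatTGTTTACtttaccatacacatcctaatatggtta
ABCA6: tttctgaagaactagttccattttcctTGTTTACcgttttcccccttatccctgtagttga
GRAMD1C: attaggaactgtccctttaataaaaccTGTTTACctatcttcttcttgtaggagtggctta
DEPP1: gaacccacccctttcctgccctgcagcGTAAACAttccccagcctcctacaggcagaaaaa
IL2RG: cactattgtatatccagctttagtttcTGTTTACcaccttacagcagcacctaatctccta
LTB: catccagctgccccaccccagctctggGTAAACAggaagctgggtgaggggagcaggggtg
BANK1: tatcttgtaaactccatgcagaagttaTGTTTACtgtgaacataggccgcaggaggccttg
These stretches lie at chr3:71245237-71245297 on the minus strand for FOXP1, chr17:69142046-69142106 on the minus strand for ABCA6 and chr3:113897403-113897463 on the plus strand for GRAMD1C. They lie at chr10:44978956-44979016 on the minus strand for DEPP1, chrX:71111721-71111781 on the minus strand for IL2RG, chr6:31582515-31582575 on the minus strand for LTB and chr4:101813711-101813771 on the plus strand for BANK1.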

How the data were processed

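The authors hybridised each silenced and control RNA pair to a 2-colour Agilent whole-genome array and deposited the Feature Extraction output, of version 10.7.3.1 for HBL-1 and 10.5.1.1 for OCI-Ly3. The deposited log10 ratio (Cy5 over Cy3) had been background-subtracted and dye-normalized by the authors, and was turned to log2(siFOXP1/siCtrl). Spot intensity values, flags and the log2 value table, all deposited by the authors, served as alternatives or filters. Control and outlier spots were left out, each gene was read by its brightest probe, and a gene was tested if either channel stood well above background on at least 4 of 6 arrays of each line. The ratios were fitted with limma 3.58.1 in R 4.3.3, with a mean per line and siRNA and Benjamini-Hochberg adjustment over 16673 genes. Named genes were FOXP1, then, with both channels measured on at least 5 arrays per line, the 10 largest differences each way, the 10 strongest shared changes each way and all opposed genes, then 4 with a dim channel and list members that differed. Of these, 1 gene is not reported here. Members and lists were chosen with earlier results of these data known. Replicates were separate experiments, per the study's methods. Arrays of the same number deviated together, with correlations of 0.116 to 0.471, so the numbers were taken to pair them. The script was tested on simulated data.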

Additional observations from a re-analysis of the deposited data

Results flagged for a closer look

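These results are listed because the response to FOXP1 silencing differed between HBL-1 and OCI-Ly3 by the limma test of the difference itself, HBL-1 minus OCI-Ly3 on the log2 scale. Among the genes named for their size the differences above 0 were SYT17 3.51, IGJ 2.94, CXCR4 2.66, PODXL 2.08, JSRP1 2.02, SUSD3 1.78, SSTR2 1.77 and NLRP7 1.72. Smaller differences on that side were CD24 1.69, COL18A1 1.67, C16orf74 1.58, DAAM1 1.56, KIF26B 1.52 and FCRL5 1.48. The differences below 0 among them were ZYG11A -3.15, P2RY14 -2.85, TRIM49 -2.78, S1PR1 -1.75, HLF -1.46, C10orf10 -1.45, KLF2 -1.45, RASSF4 -1.36 and GBP1 -1.33. Smaller differences on that side were PLAC8 -1.33, CEACAM1 -1.29, ESPNL -1.28, LMO2 -1.26, HIPK2 -1.22, ASS1 -1.16, CALHM2 -1.09, ANXA4 -1.07 and C1orf38 -0.88. The fitted values of SYT17, ZYG11A, P2RY14 and TRIM49 rest on a channel near background and are no bound.

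Among members of the gene lists the differences above 0 were IL13RA1 1.67, ICOSLG 1.33, CD27 1.25, FCRL2 1.21, RGS13 1.17, CHAC1 1.15, PRDM1 1.104, FAIM3 1.098 and IRF8 1.08. Smaller differences on that side were VLDLR 1.01, SLC7A11 0.99, LY9 0.91, TNFSF4 0.87, GPR183 0.87, HLA-DOB 0.86, MGC29506 0.85, TNFRSF13C 0.83 and RGS2 0.82. Smaller differences on that side were LTB 0.82, FOXO4 0.71, CCL5 0.67, BIK 0.66, CD22 0.64, FKBP11 0.63, CD38 0.61, PIK3IP1 0.60 and CCNG2 0.54. Smaller differences on that side were HRK 0.54, BANK1 0.52, SLC3A2 0.51 and IL2RG 0.51. The differences below 0 among list members were FCGBP -2.12, KLF3 -1.86, TNFSF10 -1.01, PIK3R1 -0.80, ITM2C -0.67, IL2RB -0.67, BID -0.65, IFIT2 -0.60 and GPR18 -0.59. Smaller differences on that side were LAT2 -0.56, FCER2 -0.54, PTGER4 -0.54, GBP4 -0.53, BIRC3 -0.52 and IFI27 -0.52.

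Single arrays stood apart from the other 5 of their line in 6 of 190 sets of gene and line looked at, where chance alone gives about 1 in 20. In HBL-1 replicate 2 of siFOXP1_308 these were C16orf74 at 2.38, IL2RB at -0.43 and SLC7A11 at -1.05. In OCI-Ly3 ASS1 stood at 1.15 in replicate 2 of siFOXP1_308, and CCL5 at -0.80 in replicate 3 of siFOXP1_309. ZYG11A stood at -0.89 in HBL-1 replicate 3 of siFOXP1_309.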

How the results depend on the processing

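No named gene turned its direction under the alternatives tried, but many lost their call. Of 98 results for named genes 24 lost it with normexp and loess, 48 with normexp and median centring and 21 with siFOXP1_308 alone. Of the 46 list members among them these settings cost 16, 31 and 20 their call. With normexp and median centring the larger side turned for the counts of HBL-1, OCI-Ly3, the difference and the shared genes. In that setting the sign also turned for the MHC class II median in HBL-1 and the plasma cell median difference. The larger side of the difference turned as well with either siRNA alone, with no filter on dim probes, and without HBL-1 replicate 1 or 3 or OCI-Ly3 replicate 1. The line with more MHC class II members called higher turned with siFOXP1_309 alone. The stress list turned without OCI-Ly3 replicate 1. With normexp and loess the counts were 515 different, 73 and 28 shared higher and lower, 1 opposed, 661 and 279 higher and lower in HBL-1, and 200 and 71 in OCI-Ly3. With normexp and median centring, where the median over all genes was -0.13 in HBL-1, -0.03 in OCI-Ly3 and -0.11 for the difference, they were 187 different, 27 shared higher, 3 opposed, 140 and 1899 in HBL-1, and 125 higher in OCI-Ly3. A log2 limit of 1 left 181, 17, 15 and 0, with 151 and 83 in HBL-1 and 46 and 27 in OCI-Ly3. With no filter on dim probes 206 genes were lower in both, and 766 higher and 436 lower in OCI-Ly3. With both channels required on all 6 arrays 322 were higher in OCI-Ly3, with siFOXP1_308 alone 811 differed and 400 were lower in OCI-Ly3, and with the mean over probes 9 were opposed. The cause was not tested.

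With the replicate block, which uses the pairing by number, 1118 genes differed, 208 and 121 were shared and 14 opposed, and besides IFIT2, SLC7A11 and VLDLR it changed no call of a named gene. With replicate means, 3 against 3, the counts were 1108, 212 and 117, and 14, and CCNG2, PIK3IP1 and ITM2C were lost too. The siRNA interaction, with 0 genes by limma, had 88 with the replicate block, 15 with the slide block, 8 with all 24 arrays, 6 with no filter and 16 with both channels required. Leaving out a replicate gave 961 to 1703 different, 198 to 232 and 110 to 131 shared, 11 to 17 opposed, 1100 to 1634 and 733 to 1147 in HBL-1, 472 to 521 and 234 to 260 in OCI-Ly3, and 0 to 2 for the interaction. It cost 3 to 9 of 46 list members their call and, of the other named genes, DDIT3. Signal near background limits the genes with a dim channel.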
